A study of Mus musculus with 62 samples.

Results

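The caput epididymis, the proximal segment of the tube in which sperm mature, was compared between F1 males with a germ-free (GF) father and a control mother and GF males themselves. The comparison used 9 of the 62 libraries of the series, chosen by their labels as caput: 3 of F1 offspring and 6 of GF mice, each the tissue of 1 animal. GF males were C57BL/6 mice of a colony kept in sterile isolators and carry no microbes. The F1 males came from GF × SPF (specific-pathogen free) breeding pairs set up in a conventional facility, where microbes are present. All 9 were wild type and adult, between 8 and 14 weeks old. F1 and GF males therefore differ at once in microbes, in generation, in the colony of the mother and in housing, and these cannot be told apart. No label gives a batch, and the litters and number of sires of the F1 males could not be taken from these sources. The SPF caput libraries (n = 4) entered no test and are quoted for their levels. With SPF cauda libraries they also served to pick genes particular to caput or cauda. Their means were further placed against the GF and F1 means of the called genes.

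The principal cells of the caput secrete beta-defensins, lipocalins and other small proteins that coat sperm. Macrophages line the epididymal epithelium and sample its contents. Complement is a set of plasma and tissue proteins that tag and lyse microbes, in which C3 is the point where all routes of activation meet.

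Transcript levels were read as TPM, which is each gene's length-scaled share of all transcripts that adds up to the same total in each library. Genes above 0 TPM numbered 15636 to 16032 in F1 and 16699 to 17310 in GF, except 13747 in GF replicate 6. Pearson correlations of log2(TPM + 1) ran from 0.982 to 0.985 between F1 libraries, from 0.985 to 0.992 between GF libraries without GF replicate 6 (0.975 with it), and from 0.968 to 0.985 between the groups. The summed level of 15 caput principal cell genes lay between 87199 and 96479 TPM in F1 and between 87392 and 109135 TPM in GF. In SPF caput it lay between 97859 and 114273 TPM. The same sum was not taken in another tissue, so it does not test the caput label.

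The complement genes C3, C4b and C7, the red-cell globins Hbb-bs and Hba-a2, the macrophage gene Cd68, Crisp1 and Kiss1 were higher in the F1 caput than in the GF caput, and Erdr1, Pla2g5, Zap70, Emid1 and Cd34 were lower. Of these genes Erdr1 alone still passed the thresholds given below when F1 replicate 2 was left out. The test in limma covered every gene that averaged 1 TPM or more across these 9 libraries, on the log2(TPM + 1) scale. Changes are given as log2 ratios, which are the F1 minus the GF mean on that scale, with their standard error (SE). A gene was called when its Benjamini-Hochberg adjusted p did not exceed 0.05 and its change reached 1.5-fold. Of 11860 genes tested, 443 were called (3.74%). Of these, 385 were higher in F1 (3.25% of those tested) and 58 lower (0.489%). An unadjusted p under 0.05 was reached by 3339 genes in the higher and 584 in the lower direction. The groups did not overlap for 2734 genes (23.1%), among them 363 of the 385 higher and 47 of the 58 lower calls. The 12 largest rises and 12 largest falls described here were taken from calls without overlap, so that their separation is part of how they were chosen.

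**Figure D1:**
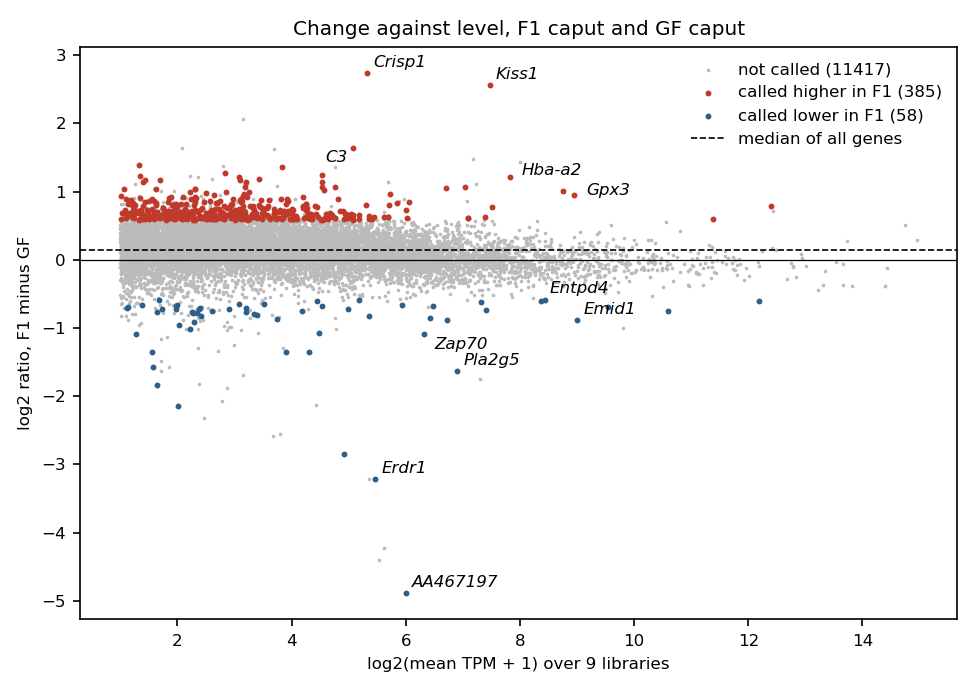
Each point is 1 of 11860 genes: log2 of its mean TPM + 1 over the 9 caput libraries (horizontal) and its log2 ratio, F1 minus GF (vertical). Calls higher in F1 (385, red) outnumber calls lower (58, blue), and the dashed median of all genes lies at 0.15, above 0.

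The excess of higher calls moved with a shift of the whole distribution. The log2 ratio was above 0 for 72.9% of genes, and its median over all genes was 0.15. After median-of-ratios scaling, which sets the typical gene to no change, 51.5% of genes were positive, 112 genes were called higher (0.944%) and 133 lower (1.12%), so that higher calls fell from 86.9% to 45.7% of all calls. The change also followed transcript length, with a median log2 ratio of -0.0045 among the shortest genes and 0.26 among the longest, when genes were divided into 4 equal groups by length. Of the longest group 6.77% were called higher and of the shortest 1.6%. The median length was 4153 bases for genes called higher, 1685 for genes called lower and 2641 over all 11761 genes with a length. The longest minus the shortest group, as a mean deviation over genes from the mean of all libraries, was 0.11 to 0.275 in F1 and -0.199 to -0.006 in GF, without overlap. With length and GC content taken out, 67 genes were called higher and 54 lower. The part of length in single calls was not tested beyond that correction. Of the calls, 47 higher and 39 lower were also made under median-of-ratios scaling, quantile normalization and the length and GC correction.

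The calls also rested on single libraries. Without F1 replicate 2, 6 genes were called higher and 3 lower, and without F1 replicate 3, 73 and 27. Without GF replicate 1 the counts were 225 and 33, and without GF replicate 3 they were 196 and 37. Leaving out any other single library gave 318 to 540 higher and 40 to 85 lower. With F1 replicate 2 left out, 3075 genes had an unadjusted p under 0.05 in limma, against 3923 with all 9 libraries. The genes called without any 1 of the 9 libraries were Efna3, Ippk, Moap1 and Serpina3n among those higher, and Erdr1 and Grrp1 among those lower. Efna3 and Grrp1 were named after their values were seen. Of the 47 genes named by rule, all kept their direction under each alternative in which they were tested, and without F1 replicate 2 only 1190002F15Rik, Erdr1, Ippk, Moap1 and Serpina3n were still called, the others having adjusted p between 0.0582 and 0.128 in limma.

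Complement had the most called members of the lists chosen by function. Of 15 tested genes 6 were called higher and none lower, against 3.25% of all genes called higher. Their median log2 ratio was 0.63, where that of all genes was 0.15, and 14 of the 15 were positive. C3 (chromosome 17), the central component, stood at 35.2, 36.8 and 37.0 TPM in F1, and at a lowest, median and highest value of 10.8, 15.4 and 18.3 TPM in GF. Every F1 library was above every GF library, and the 3 F1 values lay close together. F1 averaged 36.3 ± 0.989 TPM (SD, n = 3), and GF averaged 14.9 ± 2.66 TPM (SD, n = 6), which gave a log2 ratio of 1.25 ± 0.14 (SE, adjusted p = 0.0107 in limma). SPF caput averaged 17.2 TPM of C3, nearer to GF than to F1.

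C4b, which carries the classical pathway on to C3, stood at 16.1, 17.4 and 7.76 TPM in F1 and at 4.92, 5.41 and 5.75 TPM (lowest, median, highest) in GF. The groups did not overlap, but F1 replicate 3 lay much nearer the GF libraries than the other F1 libraries did. The log2 ratio was 1.14 (SE 0.20, adjusted p = 0.0204). Its near-identical copy C4a was at a mean of 0.217 TPM in F1 and 0.147 TPM in GF, and reads may be shared between the copies. C7, a subunit of the pore that lyses targets, was at 14.0, 11.9 and 12.7 TPM in F1 and at 3.81, 5.78 and 6.70 TPM in GF, again without overlap (log2 ratio 1.07 ± 0.14 SE, adjusted p = 0.0148). Means in SPF caput were 6.32 TPM for C4b and 8.29 TPM for C7.

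Cfb, the protease of the alternative pathway, was at 16.5, 13.8 and 11.5 TPM in F1 and at 7.15, 8.32 and 9.20 TPM in GF (log2 ratio 0.69 ± 0.12 SE, adjusted p = 0.0201). C2, its counterpart in the classical pathway, had a log2 ratio of 0.63 (adjusted p = 0.0238), and C5ar1, the receptor of the fragment C5a, one of 0.67 (adjusted p = 0.0372). C2 and C5ar1 were named after their values were seen. C1qa, a subunit of the recognition molecule C1q, was at 147 TPM in F1 and 151 TPM in GF (log2 ratio -0.03, adjusted p = 0.832). Serping1, which inhibits the proteases of C1, did not reach the call (log2 ratio 0.27, adjusted p = 0.0862). C3, C4b and C7 were also called under median-of-ratios scaling and with length and GC content taken out. Cfb, C2 and C5ar1 were called under neither, with adjusted p of 0.0381, 0.0644 and 0.0575 under median-of-ratios scaling. There Cfb missed the call through its fold, with a log2 ratio of 0.54. Complement calls numbered 3 without F1 replicate 1 and 0 without F1 replicate 2, where the adjusted p of C3 was 0.0582 and the list median 0.63. The median over the list was 0.48 under median-of-ratios scaling.

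The 250 bases before the annotated start are shown for the called complement genes with an entry in the RefSeq promoter table (3 of 6; build GRCm38.p6, whose coordinates are those of mm10), because these genes were higher together. All 3 lie on the minus strand and are written 5′ to 3′ on it: C3 at chr17:57228137-57228386, C5ar1 at chr7:16259339-16259588 and C7 at chr15:5063774-5064023. The C/EBP type motif TTGCNNAA and the STAT type motif TTCCNGGAA were searched on both strands. Capitals mark the matches.
C3: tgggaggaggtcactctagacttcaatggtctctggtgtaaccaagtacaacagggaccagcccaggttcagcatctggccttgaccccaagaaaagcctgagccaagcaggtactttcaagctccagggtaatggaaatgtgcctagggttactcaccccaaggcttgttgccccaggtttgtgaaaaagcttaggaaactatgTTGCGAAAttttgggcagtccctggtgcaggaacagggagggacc
C5ar1: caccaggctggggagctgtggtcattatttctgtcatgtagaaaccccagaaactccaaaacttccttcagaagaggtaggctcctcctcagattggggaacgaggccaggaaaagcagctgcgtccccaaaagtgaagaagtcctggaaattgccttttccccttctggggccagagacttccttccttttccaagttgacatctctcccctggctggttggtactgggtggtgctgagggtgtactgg
C7: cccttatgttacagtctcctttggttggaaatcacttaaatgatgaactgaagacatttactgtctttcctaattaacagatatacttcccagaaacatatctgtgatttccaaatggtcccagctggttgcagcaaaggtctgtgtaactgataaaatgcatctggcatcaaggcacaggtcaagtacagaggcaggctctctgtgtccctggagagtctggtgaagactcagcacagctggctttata
The only match to these letters was of the C/EBP type in C3, from 45 to 38 bases before the start. Looser forms of the motifs were not searched. That motif is held by 7.30% of such windows before 8986 tested genes and the STAT type by 0.990%. No printed window held a STAT type match, so the motifs could not overlap there.

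Beside complement, 4 of 21 tested macrophage genes were called higher and none lower, where 3.25% of all genes were called higher. The list median of 0.17 was close to that of all genes, 0.15. Cd68, a lysosomal protein of macrophages, was at 90.4, 70.4 and 80.4 TPM in F1 and at 37.9, 44.3 and 56.2 TPM in GF. All F1 libraries were above all GF libraries (log2 ratio 0.83 ± 0.13 SE, adjusted p = 0.0178), and the SPF caput mean of Cd68 was 45.6 TPM. Cx3cr1, the fractalkine receptor of tissue macrophages, Itgam, the integrin CD11b, and Mpeg1, a pore protein of phagocytes, had log2 ratios of 0.65, 0.62 and 0.62, with limma adjusted p of 0.0241, 0.0218 and 0.0218. Defining markers of the lineage did not follow them: Csf1r, the receptor for the growth factor of macrophages, had 0.08 (adjusted p = 0.546), C1qb 0.06 (adjusted p = 0.687) and Aif1 0.12 (adjusted p = 0.624). The summed level of the list lay between 1096 and 1202 TPM in F1 and between 907 and 1045 TPM in GF, without overlap. This was not particular to macrophage genes. Sums of other lists lay apart in the same direction, among them those of MHC class I and II, circadian clock and clear cell genes. The sum of the T, B and plasma cell list was among those apart in the other direction. In whole tissue, more cells of a type and more RNA per cell cannot be told apart. Of the 4 genes, Cd68 alone was called under median-of-ratios scaling, where the list median was 0.02, and none without F1 replicate 2.

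Serpina3n, a secreted serine protease inhibitor of the acute phase, was at 15.2, 21.8 and 12.3 TPM in F1 and at 5.63, 6.52 and 7.40 TPM in GF. The groups lay apart, and the log2 ratio was 1.19 (SE 0.16, adjusted p = 0.0148, and 0.0399 without F1 replicate 2). Ackr1, a decoy receptor for chemokines on red cells and venules, was at 4.17, 3.90 and 1.94 TPM in F1 and at 0.290, 0.645 and 0.880 TPM in GF (log2 ratio 1.39, adjusted p = 0.0148). None of 30 interferon-stimulated genes and none of 14 genes of MHC class I and II was called in limma, with 6 and 1 at an unadjusted p under 0.05. B2m, the light chain of MHC class I, had a log2 ratio of 0.43 (adjusted p = 0.0457), under the fold needed for a call. None of 8 microbe-sensing receptors and adaptors was called either, and 2 had an unadjusted p under 0.05.

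Zap70, a kinase of T-cell receptor signalling, was the called member among 4 tested genes of T, B and plasma cells. It was lower in F1, where 0.489% of all genes were called lower. It stood at 28.5, 51.2 and 57.8 TPM in F1 and at 86.9, 97.0 and 98.8 TPM in GF, with no overlap (log2 ratio -1.09 ± 0.18 SE, adjusted p = 0.0192). Its SPF caput mean was 72.0 TPM. Defining T-cell genes were far lower in level: Cd3e, the epsilon chain of CD3, averaged 3.06 TPM in F1 and 1.76 TPM in GF, and Cd4 and Cd8a were below 1 TPM in every library. Cd3e differed in the other direction (log2 ratio 0.57, adjusted p = 0.0218), short of the fold for a call. Whether Zap70 came from T cells was not tested.

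Of 5 erythroid genes tested, 2 were called higher in F1 and none lower, where 3.25% of all genes were called higher. Hbb-bs, a beta-globin of red cells, was at 457, 291 and 335 TPM in F1 and at 107, 153 and 255 TPM in GF (log2 ratio 1.21 ± 0.25 SE, adjusted p = 0.0232). Hba-a2, an alpha-globin, was at 792, 487 and 657 TPM in F1 and at 249, 301 and 461 TPM in GF (log2 ratio 1.00 ± 0.21 SE, adjusted p = 0.0227). For both genes the lowest F1 library lay above the highest GF library. SPF caput means were lower still than those of GF, at 69.7 TPM for Hbb-bs and 123 TPM for Hba-a2. The list median was 0.88, where that of all genes was 0.15. The near-identical Hbb-bt did not pass (0.88, adjusted p = 0.187), and reads may be shared among globin copies. The summed level of the list was 864 to 1395 TPM in F1 and 431 to 791 TPM in GF. Both calls held under the 3 scalings and were lost without any 1 of the F1 libraries (adjusted p between 0.0562 and 0.0658).

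The largest rises were those of Crisp1 and Kiss1. Crisp1, a cysteine-rich secretory protein that coats sperm, was at 43.45, 102 and 128 TPM in F1 and at 3.84, 12.1 and 23.25 TPM in GF. F1 replicate 1 lay lowest in its group, still above every GF library. F1 averaged 91.1 ± 43.2 TPM (SD, n = 3), and GF averaged 13.0 ± 6.46 TPM (SD, n = 6), which gave a log2 ratio of 2.74 ± 0.47 (SE, adjusted p = 0.0192, and 0.0630 and 0.0553 without F1 replicates 2 and 3). The 4 SPF caput libraries lay between 47.2 and 84.7 TPM.

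Kiss1, which encodes the peptide kisspeptin, was at 689, 282 and 217 TPM in F1 and at 30.1, 47.8 and 122 TPM in GF. F1 replicate 1 lay highest, and the groups did not overlap (log2 ratio 2.56 ± 0.49 SE, adjusted p = 0.0218, and 0.0630 without F1 replicate 2). The SPF caput averaged 332 ± 37.2 TPM (SD, n = 4). Golt1a, whose annotated gene overlaps Kiss1, had a log2 ratio of -0.10 (adjusted p = 0.549).

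**Figure D2:**
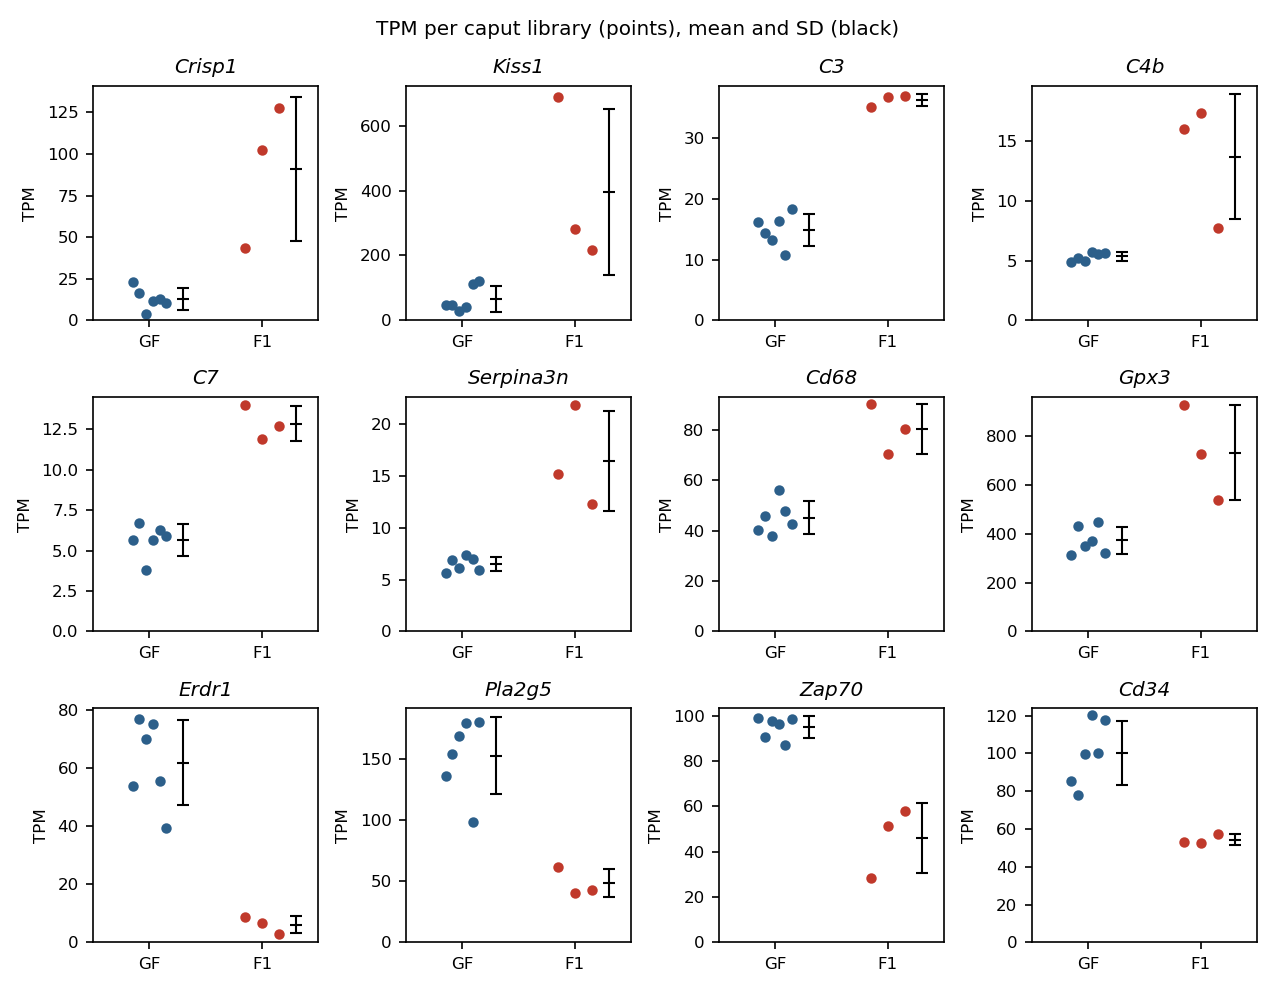
TPM of 12 genes in each GF caput (blue, n = 6) and F1 caput library (red, n = 3), with the mean and SD in black and each vertical axis starting at 0. In the upper 8 panels every F1 library lies above every GF library, and in the 4 panels from Erdr1 to Cd34 every F1 library lies below.

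Further rises were in genes of lower level. Rab11fip4, an adaptor of recycling endosomes, was at 23.9, 23.7 and 21.0 TPM in F1 and at 5.91, 8.95 and 11.4 TPM in GF (log2 ratio 1.36, adjusted p = 0.0148). Ippk, the kinase that makes inositol hexakisphosphate, was at 13.6, 10.8 and 13.4 TPM in F1 and at 3.81, 4.82 and 5.97 TPM in GF (log2 ratio 1.22, adjusted p = 0.0107, and 0.0398 without GF replicate 1). Moap1, a modulator of cell death, was at 3.37, 2.68 and 3.37 TPM in F1 and at 0.630, 0.735 and 1.04 TPM in GF (log2 ratio 1.23 ± 0.10 SE, adjusted p = 0.000969). Moap1 overlaps the annotated gene Gm20604, which was called in the other direction (log2 ratio -1.09, adjusted p = 0.0481), so how reads were divided between them is uncertain. Mycl, a transcription factor of the Myc family, Sez6l, a membrane protein, and the uncharacterised 2010204K13Rik had log2 ratios of 1.17, 1.16 and 1.16 (adjusted p = 0.0259, 0.0211 and 0.0256). Klhdc10 and Kdm2b, named after their values were seen, were called although F1 replicate 1 lay within the GF range: Klhdc10 was at 18.3, 83.8 and 94.4 TPM in F1 and at most 18.8 TPM in GF, and Kdm2b at 15.5, 44.5 and 51.9 TPM in F1 and at most 16.6 TPM in GF. Of 18 alternatives 7 kept the call of Klhdc10 and 5 that of Kdm2b. Both calls were lost under median-of-ratios scaling (adjusted p = 0.0508 and 0.0696), with length and GC content taken out (0.0891 and 0.129), and without F1 replicate 2, F1 replicate 3 or any 1 of GF replicates 1 to 4, that of Kdm2b also without GF replicate 5.

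Among the falls, Pla2g5, a secreted phospholipase A2, was at 61.9, 40.9 and 42.7 TPM in F1 and at 98.3, 162 and 181 TPM in GF. All F1 libraries were below all GF libraries (log2 ratio -1.63 ± 0.21 SE, adjusted p = 0.0147, and 0.0621 without F1 replicate 2), and the SPF caput averaged 51.8 TPM. Emid1, a secreted protein of the extracellular matrix, was at 296, 342 and 338 TPM in F1 and at 505, 614 and 690 TPM in GF (log2 ratio -0.88 ± 0.12 SE, adjusted p = 0.0148). Cd34, a sialomucin of vascular and progenitor cells, was at 53.3, 52.5 and 57.5 TPM in F1 and at 78.2, 99.95 and 121 TPM in GF (log2 ratio -0.85 ± 0.14 SE, adjusted p = 0.0180). For Emid1 and Cd34 the SPF caput averaged 496 and 118 TPM, nearer to GF than to F1. Of 11 endothelial genes tested none was called in limma, with 5 at an unadjusted p under 0.05 and a list median of 0.26.

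Nptx2, a secreted pentraxin, was at 8.56, 11.3 and 15.9 TPM in F1 and at 18.2, 27.4 and 30.6 TPM in GF (log2 ratio -1.07, adjusted p = 0.0211), with an SPF mean of 31.9 TPM. Clec18a, a lectin, and Sh2b2, an adaptor of receptor tyrosine kinases, had log2 ratios of -1.36 (adjusted p = 0.0231) and -0.91 (adjusted p = 0.0201). The uncharacterised 1700120C14Rik, 1700092K14Rik and 1190002F15Rik fell by 1.58, 1.36 and 1.01 on the log2 scale (adjusted p = 0.0176, 0.0259 and 0.0231), the first and second from GF medians of 2.70 and 2.35 TPM to F1 libraries of which 2 each are listed at 0. AA467197 was at 0.860, 0.670 and 0.890 TPM in F1 and at 1.35, 128 and 141 TPM (lowest, median, highest) in GF. GF replicate 5 was its lowest library, close to F1, and GF replicate 6 was at 28.8 TPM (log2 ratio -4.88 ± 1.19 SE, adjusted p = 0.0306). This call was lost without any 1 of the F1 libraries and of GF replicates 1 to 4 (adjusted p between 0.0527 and 0.0910).

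Erdr1, Entpd4 and Nnt were looked at by name. Erdr1, a gene of the pseudoautosomal region with further copies, so that its reads are uncertain, was at 8.74, 6.80 and 2.79 TPM in F1 and at 39.4, 62.6 and 76.9 TPM in GF. It was far lower in every F1 library (log2 ratio -3.21 ± 0.30 SE, adjusted p = 0.00306, and at most 0.0164 without any 1 library), while the SPF caput averaged 0.0325 TPM. Entpd4, a nucleotidase of the Golgi with a near-identical copy, was at 260, 221 and 249 TPM in F1 and at 322, 374 and 414 TPM in GF (log2 ratio -0.61 ± 0.10 SE, adjusted p = 0.0178), with an SPF mean of 102 TPM. Nnt, the mitochondrial transhydrogenase, was at 8.00, 7.74 and 10.2 TPM in F1 and at 3.97, 5.17 and 6.59 TPM in GF (log2 ratio 0.66 ± 0.15 SE, adjusted p = 0.0252), with an SPF mean of 9.72 TPM. For all 3 genes the groups did not overlap, and F1 lay on the SPF side of GF. The call of Nnt was lost under median-of-ratios scaling (adjusted p = 0.0509). Of the 385 genes called higher in F1, the SPF mean on the log2(TPM + 1) scale lay between the GF and F1 means for 285, beyond F1 for 4 and on the other side of GF for 96. Of the 58 called lower it lay between them for 37, beyond F1 for 2 and on the other side of GF for 19. By distance it was nearer to GF than to F1 for 330 of the 385 and 40 of the 58. The SPF mean was placed for called genes only, so no share over all genes can be set beside these counts.

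The caput epithelium was followed through its secreted proteins and through genes particular to the segment in SPF mice. Of 140 genes 16-fold or more higher in SPF caput than in SPF cauda, all of them tested, 7 were called higher and 6 lower, where 3.74% of all genes were called, 3.25% higher and 0.489% lower. Kiss1 was among those higher, and Pla2g5, Emid1, Zap70 and Defb21 among those lower. The list median was -0.07, with 63 genes at an unadjusted p under 0.05. Under median-of-ratios scaling 3 of the 140 were called higher and 14 lower, with length and GC content taken out 4 and 5, and none without F1 replicate 2. Of 26 beta-defensins tested, small antimicrobial proteins of the epididymal lumen, 1 was called lower and none higher, where 0.489% of all genes were called lower. The list median was -0.26. Under median-of-ratios scaling 2 were called lower and the median was -0.42. The called gene was Defb21, at 95.5, 116 and 139 TPM in F1 and at 159, 194 and 219 TPM in GF (log2 ratio -0.74 ± 0.14 SE, adjusted p = 0.0211). With length and GC content taken out the call was lost (adjusted p = 0.0931) and the list median was -0.06. Defb25 and Defb42, 2 of the abundant members, had log2 ratios of -0.39 (adjusted p = 0.0470) and -0.25 (adjusted p = 0.0494), and Spag11b, another beta-defensin, 0.51 (adjusted p = 0.0204), all under the fold for a call.

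None of 15 caput principal cell genes was called in limma, with 7 at an unadjusted p under 0.05 and a list median of -0.12. Under median-of-ratios scaling 1 was called lower and the median was -0.29. Gpx5, the secreted glutathione peroxidase that is among the most abundant transcripts of this tissue, had a mean of 36066 TPM in F1 and 29701 TPM in GF (log2 ratio 0.28, adjusted p = 0.0491). Lcn8 and Lcn9, lipocalins that carry small lipids, had log2 ratios of -0.39 (adjusted p = 0.0660) and -0.37 (adjusted p = 0.0531). Lcn5, a retinoid-binding lipocalin, varied within GF: it was at 264, 270 and 285 TPM in GF replicates 1, 3 and 6, at 587 TPM in GF replicate 4, and at 1046 and 1544 TPM in GF replicates 2 and 5, with 926 to 1324 TPM in F1. Clu, the secreted chaperone clusterin, was at 2828, 3511 and 3440 TPM in the first 3 of these and at 4748 to 7033 TPM in the others, with 6736 to 7879 TPM in F1. None of 12 initial segment genes was called, with 4 at an unadjusted p under 0.05. Among 49 tested genes 16-fold or more higher in SPF cauda than in SPF caput, 2 were called, Crisp1 and Gpx3, where 3.74% of all genes were called. Of 21 Hox genes tested, Hoxc8 alone was called, where 3.25% of all genes were called higher. Its log2 ratio was 0.78 (adjusted p = 0.0452), and it was not called under median-of-ratios scaling (adjusted p = 0.0722).

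**Figure D3:**
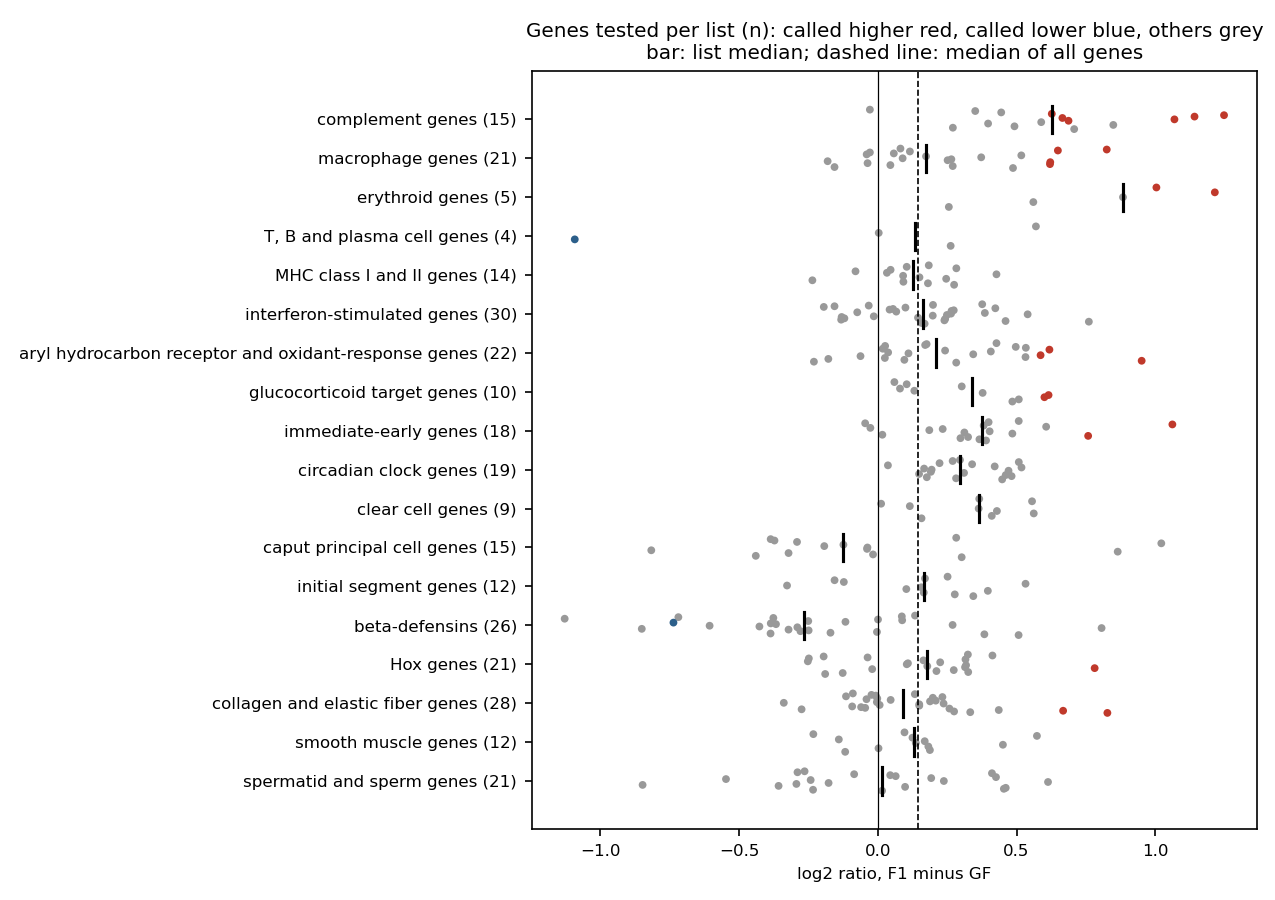
Log2 fold change (F1 minus GF) of the tested genes of 18 lists, with the number tested in brackets; calls higher are red, calls lower blue and all others grey. The complement median of 0.63 and the erythroid median of 0.88 lie right of the dashed median of all genes at 0.15, and the medians of beta-defensins (-0.26) and caput principal cell genes (-0.12) lie left of it.

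In a joint list of aryl hydrocarbon receptor and oxidant-response genes, 3 of 22 tested were called higher and none lower, where 3.25% of all genes were called higher. The list median was 0.21, and that of all genes 0.15. Gpx3, a secreted glutathione peroxidase, was at 928, 728 and 539 TPM in F1 and at 313, 360 and 446 TPM in GF, without overlap (log2 ratio 0.95 ± 0.18 SE, adjusted p = 0.0204). Srxn1, which restores peroxiredoxins, and Gsta3, a glutathione transferase, had log2 ratios of 0.59 (adjusted p = 0.0256) and 0.62 (adjusted p = 0.0390). Gpx3 alone was called with length and GC content taken out, and also under median-of-ratios scaling, with adjusted p there of 0.0560 for Srxn1 and 0.0758 for Gsta3. Targets of the aryl hydrocarbon receptor in the same list did not move with them: Tiparp had 0.17 (adjusted p = 0.395) and Cyp1b1 0.18 (adjusted p = 0.518), and Cyp1a1 averaged below 1 TPM.

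Of 10 glucocorticoid target genes 2 were called higher, where 3.25% of all genes were. They were Errfi1, a brake on the EGF receptor, and Klf9, a transcription factor. Neither was called under median-of-ratios scaling (limma adjusted p = 0.0535 and 0.0682). All 19 circadian clock genes tested had a positive sign, where 72.9% of all genes did, with a median of 0.30, and none was called in limma, while 8 had an unadjusted p under 0.05. Under median-of-ratios scaling 18 of the 19 were positive, with a median of 0.17. All 9 clear cell genes tested, of the cells that acidify the lumen, were likewise positive with a median of 0.37 and none called, 4 of them at an unadjusted p under 0.05. Under median-of-ratios scaling 7 of the 9 were positive, with a median of 0.24. Hspa5, the chaperone BiP of the endoplasmic reticulum, was the called member of 22 heat-shock and unfolded-protein genes (log2 ratio 0.77, adjusted p = 0.0259). That count is near the 3.25% of all genes called higher. Of 28 collagen and elastic fiber genes 2 were called higher, where 3.25% of all genes were. They were Dcn, the proteoglycan decorin, and Fn1, fibronectin (log2 ratio 0.67 and 0.83, adjusted p = 0.0223 and 0.0351). Neither was called under median-of-ratios scaling (adjusted p = 0.0374 and 0.0552, Dcn missing the call through its fold). In all, 18 of the 34 lists held no call, among them those of smooth muscle, basal cells, adipocytes, cell proliferation, cholesterol synthesis, and spermatids and sperm.

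Immediate-early genes are those that cells switch on within minutes of a stimulus. Of 18 tested in the caput, 2 were called higher and none lower, where 3.25% of all genes were called higher. The median was 0.37, against 0.15 over all genes, and it was 0.22 under median-of-ratios scaling and 0.20 with length and GC content taken out. Egr1, a zinc finger factor, was at 26.2, 34.9 and 41.7 TPM in F1 and at 9.10, 16.2 and 21.1 TPM in GF (log2 ratio 1.06 ± 0.23 SE, adjusted p = 0.0252). Klf4, a transcription factor of epithelium, was at 7.82, 5.08 and 6.21 TPM in F1 and at 2.14, 3.51 and 4.13 TPM in GF (log2 ratio 0.76 ± 0.17 SE, adjusted p = 0.0259). Both genes had groups apart and were called under median-of-ratios scaling (adjusted p = 0.0312 and 0.0417), and neither was called with length and GC content taken out (0.0549 and 0.0652). Neither was called without F1 replicate 2 (adjusted p = 0.0777 and 0.0630), F1 replicate 3 (0.0825 and 0.0727) or GF replicate 1 (0.0515 and 0.0530), and Klf4 also not without F1 replicate 1 (0.0694) or GF replicate 3 (0.0517).

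In the cauda, the distal segment, the same genes stood further apart, and whether the regions differed was tested by an interaction term in limma (8 cauda libraries, 3 of F1 and 5 of GF, with the swollen GF cauda replicate 4 left out as the authors did). No source here says which caput and cauda libraries came from 1 animal, and the fit takes them as independent. Of 12745 genes 39 differed (0.306%), 36 with a smaller F1 minus GF value in caput and 3 with a larger one, and 1296 had an unadjusted p under 0.05. Of 20 immediate-early genes in that fit 14 differed, all with a smaller value in caput. Fos, a subunit of the AP-1 factor, was at 3.20 to 3.45 TPM in F1 caput and 1.37 to 2.67 TPM in GF caput, but at 251 to 368 TPM in F1 cauda and 7.79 to 26.1 TPM in GF cauda. The log2 ratios of 0.51 and 3.90 differed by -3.39 (SE 0.40, adjusted p = 0.000487). For Egr1 they were 1.06 and 3.06 (difference -1.998, adjusted p = 0.0166).

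Cd34 took opposite directions. It was lower in F1 caput (-0.85), and in cauda it was at 37.6 to 51.3 TPM in F1 and 9.38 to 34.3 TPM in GF, a log2 ratio of 1.36 and a difference of -2.21 (adjusted p = 0.0125). Cxcl1, a chemokine for neutrophils, lay below 1 TPM in all 9 caput libraries and at 7.35 to 23.6 TPM in F1 cauda. Crisp1, Kiss1, C3, Erdr1 and Entpd4 did not pass the interaction test in limma (adjusted p = 0.305, 0.138, 0.728, 0.952 and 0.898). For Crisp1 the log2 ratios were 2.74 in caput and 0.70 in cauda, a difference of 2.04. For Kiss1 they were 2.56 and -0.23, a difference of 2.79. Those of C3 were 1.25 and 1.86, of Erdr1 -3.21 and -3.40, and of Entpd4 -0.61 and -0.52. Not passing does not show that the regions were alike. The count of 39 depended on the cauda libraries: it was 340 without F1 cauda replicate 1, 171 without GF cauda replicate 5, 109 without F1 cauda replicate 3 and 80 without GF cauda replicate 6, and 23 with the swollen cauda included.

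**Figure D4:**
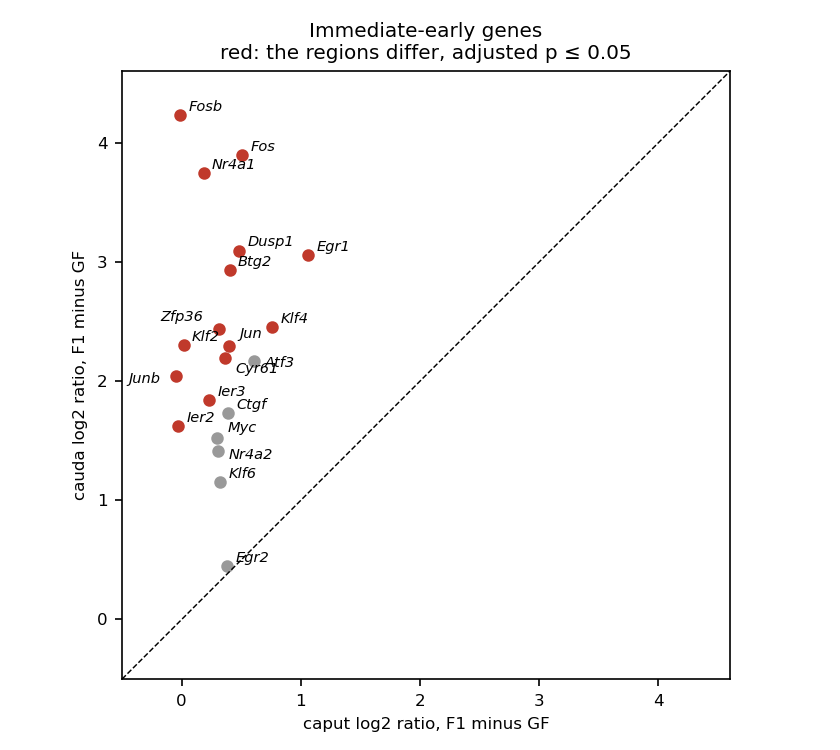
Log2 fold change, F1 minus GF, of immediate-early genes in caput (horizontal) and cauda (vertical), with the line of equality dashed. Red points mark genes for which the regions differed at an adjusted p of at most 0.05; Fos lies at 0.51 in caput and 3.90 in cauda, and Egr1 at 1.06 and 3.06.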

How the data were processed

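The authors aligned paired reads of 50 bp from stranded, polyadenylated RNA libraries to the mouse genome mm10 with RSEM, through Via Foundry, and deposited TPM of 23845 genes in 62 libraries. Their versions are not stated in these sources. TPM keep no read counts, so depth and counting error are unknown and the spread between animals is the only measure of precision. The authors' own calls came from DESeq2 on raw counts, which were not used here.

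Every gene averaging 1 TPM or more across the 9 libraries entered a limma (3.58.1, R 4.3.3) fit of log2(TPM + 1), with Benjamini-Hochberg adjustment over all genes tested. Fold changes are on that scale, which understates changes of low genes. Alternatives changed the pseudocount (0.1), the filter (none, or 5 TPM), the scaling (median of ratios, quantile), the variance model (trend, array weights) or the replicate block, or left out each library. The length and GC correction, with lengths from the GENCODE annotation of mm10, and leaving out libraries in the test between regions were chosen after seeing the data.

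Genes named are the 12 largest rises and 12 largest falls among calls whose groups do not overlap, up to 4 called members of each of 34 lists (629 genes, 612 in the table, 468 tested), and Erdr1, Entpd4 and Nnt. The comparison, the lists and the named genes were chosen with earlier results of these data known. In a test on simulated data of 11860 genes, 92 of 100 genes changed 2-fold and 100 of 100 changed 4-fold were recovered, with 7 false calls. The changed genes were drawn only from genes at a level of 5 TPM or more in GF. The noise was independent between genes, with no shift of the whole distribution and no trend with transcript length. The real data hold both, so these rates do not describe the real calls.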

Additional observations from a re-analysis of the deposited data

Results flagged for a closer look

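In 7 of the 50 items looked at in the 6 GF caput libraries (47 named genes and 3 facts of a library), 1 library stood apart by Dixon's test at its 95% level. Chance gives about 1 in 20. GF replicate 6 held 13747 genes above 0 TPM and had a mean correlation of 0.9759 with the other GF libraries, both the lowest of the group. It was also highest for Sh2b2 (7.31 TPM) and lowest for Klf9 (0.85 TPM). GF replicate 3 was highest for Moap1 (1.04 TPM) and lowest for C7 (3.81 TPM), and GF replicate 5 was highest for Dcn (34.86 TPM). None of these values overlapped with F1.

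The difference of F1 minus GF between caput and cauda passed the interaction test in limma for 5 named genes, on the log2 scale. It was -2.15 for 1700092K14Rik (adjusted p = 0.0213), -2.21 for Cd34 (adjusted p = 0.0125), -1.998 for Egr1 (adjusted p = 0.0166), -1.70 for Klf4 (adjusted p = 0.0166) and -1.43 for Errfi1 (adjusted p = 0.0384). Errfi1 was at 26.8 to 30.8 TPM in F1 caput and 56.0 to 104 TPM in F1 cauda, with 14.0 to 23.9 TPM in GF caput and 12.8 to 22.04 TPM in GF cauda. The values of 1700092K14Rik lay near the floor. They were 0 to 1.74 TPM in F1 caput and 1.93 to 3.57 TPM in GF caput. In cauda they were 0.66 to 1.56 TPM in F1 and 0 to 0.39 TPM in GF.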

How the results depend on the processing

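Genes called higher and lower, 385 and 58, became 112 and 133 under median-of-ratios scaling, 92 and 115 under quantile normalization, 236 and 42 at a mean of at least 5 TPM, and 67 and 54 with length and GC content taken out. Leaving out 1 library gave 6 to 540 higher and 3 to 85 lower. The difference between regions, 39 genes, ranged from 30 to 340 with 1 library left out and was 23 with GF cauda replicate 4 included. No other alternative moved a count by over 1.5 times, apart from the replicate block. Labels give both groups numbers 1 to 3, but the numbers do not pair the libraries: deviations of libraries with the same number correlated at -0.048, 0.111 and -0.021. With the replicate block 0 genes were called higher in limma (2991 were higher at an unadjusted p under 0.05) and 5 lower, and 26 differed between regions. No named gene reversed. Called genes at a few TPM are near the filter, and their counting error cannot be given.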

Other observations

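Rn4.5s, Hist1h4m and Snora52 were called lower in F1 and were picked out after their values were seen. Rn4.5s, a small RNA of rodents, was at 0, 16.4 and 5.98 TPM in F1 and at 13.2, 37.9 and 75.9 TPM (lowest, median, highest) in GF (log2 fold change -2.85, adjusted p = 0.0450 in limma). Hist1h4m, a replication-dependent histone gene, and Snora52, a small nucleolar RNA, are listed at 0 in all 3 F1 libraries and in GF replicate 6, and had GF medians of 3.22 and 4.29 TPM (adjusted p = 0.0441 and 0.0445). The groups overlapped for all 3, and of their 17 alternatives 5, 6 and 4 kept the call.

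Slpi, a secreted inhibitor of leukocyte elastase, was at 10.7, 10.8 and 9.02 TPM in F1 and at 1.52, 3.64 and 9.24 TPM in GF (log2 fold change 1.27, adjusted p = 0.0452), with GF replicate 3 within the F1 range. Of 18 alternatives 5 kept the call, which was lost under median-of-ratios scaling (adjusted p = 0.0900), with length and GC content taken out (0.0824) and without F1 replicate 2 (0.124). Efna3, an ephrin ligand, was at 6.45, 7.0 and 6.27 TPM in F1 and 2.39, 2.72 and 2.94 TPM in GF (log2 fold change 1.04, standard error 0.08, adjusted p = 0.000969).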
